A study of Mus musculus with 10 samples.

Results

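The genes described here are 38 mouse genes whose proteins load the replicative helicase at origins, start DNA synthesis and copy DNA at the fork. They were chosen by gene symbol. All 38 were found among the 54532 genes of the deposited table, and all 38 passed the filter on low counts, which left 14283 genes to test. Expression was measured by RNA sequencing of B cells from the spleen, with 5 libraries from mice labelled fibrosis, which had received intraperitoneal CCl4 (carbon tetrachloride, a hepatotoxin used to cause liver scarring) for 4 weeks, and 5 from wildtype mice labelled control. Strain, age, sex, any vehicle given to the controls, the isolation of the B cells and the number of animals behind each library were not given in the sources used here. All p-values therefore measure the spread between libraries, and that spread may be technical.

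Before a cell copies its DNA, the origin recognition complex with Cdc6 and Cdt1 loads the ring of Mcm2 to Mcm7 onto DNA, a step called licensing, which geminin (Gmnn) blocks by binding Cdt1. In S phase the ring is switched on by joining Cdc45 and the GINS complex, polymerase alpha and primase lay down primers, and polymerases delta and epsilon extend them while held by the Pcna clamp, which the RFC complex loads. Most resting B cells of the spleen are outside the cell cycle and hold little of this machinery, whereas precursor B cells, germinal centre B cells, plasmablasts and the erythroid precursors of the mouse spleen divide.

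Total counts ranged from 13439100 to 17069393 in the fibrosis libraries and from 15912080 to 17954551 in the controls. Correlations of log2 levels between libraries lay between 0.987 and 0.992 within the control group and between 0.965 and 0.986 within the fibrosis group. A list of 8 B cell genes, among them Ms4a1, Cd79a, Cd79b and Pax5, summed to between 6056 and 8624 CPM (counts scaled to library size) in the fibrosis libraries and between 5758 and 6567 in the controls, so the labelled cell type was present in every library. Fibrosis libraries 4 and 5 stood apart on markers of other cells. Their platelet and megakaryocyte genes summed to 688% and 724% of the control mean and their neutrophil genes to 494% and 622%, whereas fibrosis libraries 1 to 3 reached at most 402% and 135%. Counts of called replication genes are therefore also given without these 2 libraries.

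Replication transcripts were lower in the fibrosis group in nearly every case. By edgeR's quasi-likelihood test with Benjamini-Hochberg adjustment over all tested genes, 36 of the 38 were called lower at an adjusted p under 0.05, beside 17.2% of all tested genes. None was called higher, beside 18.6% of all tested genes. The 2 that were not called were Pold1 (unadjusted p = 0.0394) and Rfc1 (unadjusted p = 0.0347); all 38 had an unadjusted p under 0.05, and limma voom called Rfc1 higher. A change of at least 2-fold was seen for 20 of the 36 genes called lower, beside 5.38% of all tested genes. For 33 of the 38, every fibrosis library lay below every control library, beside 14.0% of all tested genes. The median log2 fold change, fibrosis minus control, was -1.02 over the 38 genes and 0.05 over all tested genes. Erythroid markers (11 of 16) and markers of immature and precursor B cells (9 of 10) were also called lower by edgeR, and their levels were each fitted as a covariate. With the erythroid level 11 of the 38 replication genes were called lower, beside 1.18% of all tested genes, with a median of -0.67, and with the immature B cell level 9 were, beside 1.83%, with a median of -1.17. In RNA from a whole preparation, fewer cells of a type and less RNA per cell cannot be told apart.

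**Figure D1:**
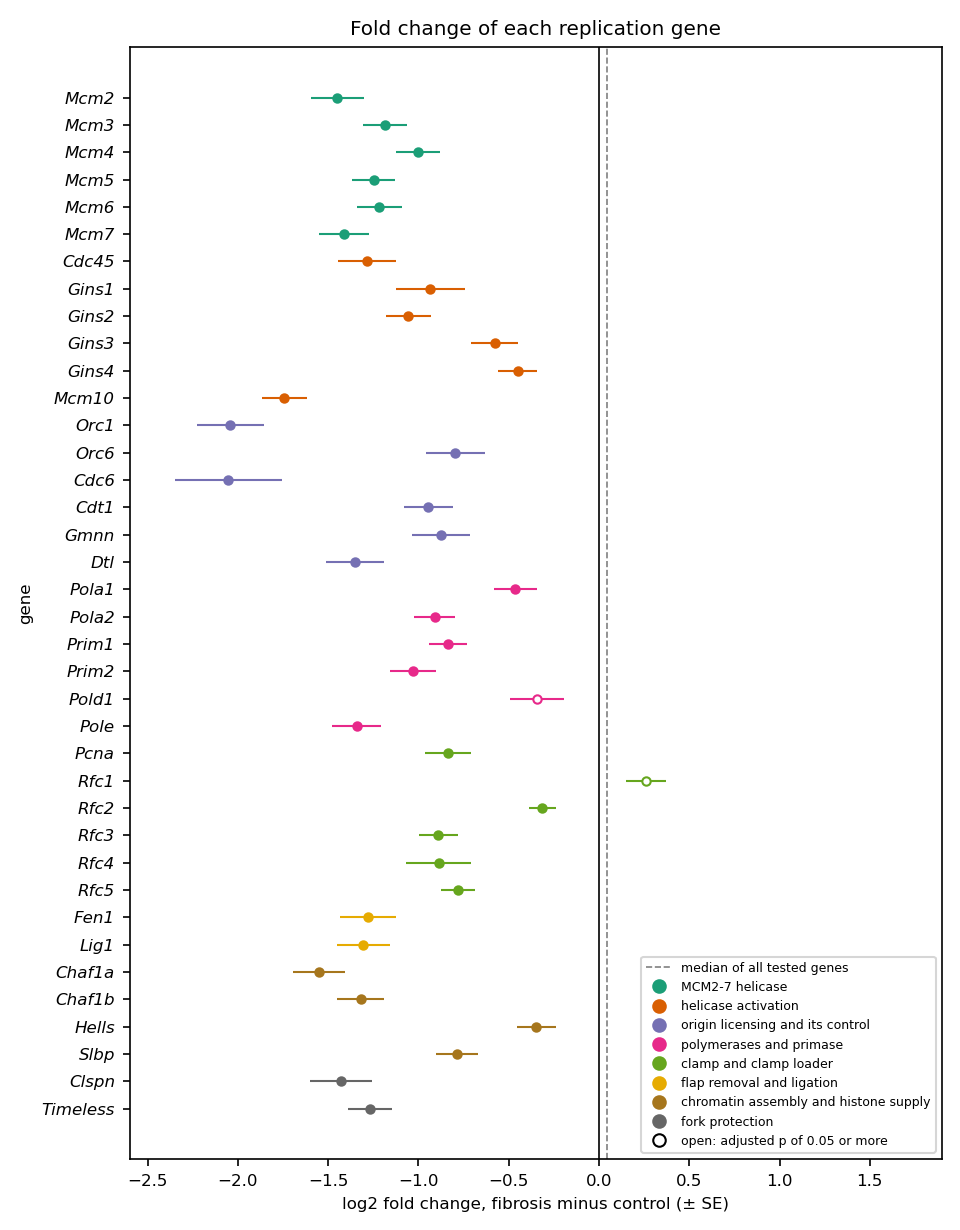
Log2 fold change of each of the 38 replication genes, fibrosis minus control, with its standard error; colours mark the role of the gene, open circles mark genes with an adjusted p of 0.05 or more, and the dashed line marks the median of all tested genes at 0.05. Only Rfc1 lies to the right of 0, and Orc1, Cdc6 and Mcm10 lie farthest to the left.

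The median change differed by role, while genes within a role could differ by more. Helicase activation genes, for example, ran from -1.74 to -0.45, whereas those of the MCM ring ran from -1.45 to -1.0. All 6 genes of the MCM ring were at least 2-fold lower (median -1.23). Genes of origin licensing and its control had a median of -1.15 and helicase activation genes one of -1.0, with 3 of 6 at least 2-fold lower in each. Polymerase and primase genes had a median of -0.87, and those of the clamp and its loader a median of -0.81 with none of the 6 at least 2-fold lower. Fork protection (-1.35), flap removal and ligation (-1.29) and chromatin assembly with histone supply (-1.05) hold 2, 2 and 4 genes. These medians describe the genes chosen, and the differences between roles were not tested.

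The promoters of genes that moved by different amounts are shown first, because many of these genes are known targets of the E2F family, the transcription factors that switch on S phase genes. RefSeq promoters (GRCm38.p6) were matched by symbol for 30 of the 38 genes, 34 promoters in all; Prim2, Gins1, Gins2, Gins4, Mcm4, Gmnn, Rfc2 and Pole were not matched. The 250 bases before each start were searched on both strands for the E2F letters TTTCCCGC, TTTGGCGC and TTTCGCGC and for CCAAT, the letters bound by NF-Y, with overlapping matches counted. Each window below reads 5′ to 3′ on the strand of the gene and stops short of any annotated exon. Letters of either motif are in capitals where the whole match lies in the window. The first 5 hold E2F letters and belong to genes with large (Cdc6), middle (Mcm5, Mcm6, Dtl) and small (Pola1) changes, the sixth belongs to a strongly lowered gene with CCAAT alone, and the last 2 belong to the genes not called.
Cdc6, chr11:98908001-98908150, + strand: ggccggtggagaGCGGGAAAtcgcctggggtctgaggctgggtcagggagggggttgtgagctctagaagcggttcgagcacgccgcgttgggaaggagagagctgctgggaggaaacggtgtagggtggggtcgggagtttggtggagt
Mcm5, chr8:75109359-75109508, + strand: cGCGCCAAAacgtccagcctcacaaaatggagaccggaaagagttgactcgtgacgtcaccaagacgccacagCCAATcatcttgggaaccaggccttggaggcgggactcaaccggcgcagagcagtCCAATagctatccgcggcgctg
Mcm6, chr1:128359706-128359855, - strand: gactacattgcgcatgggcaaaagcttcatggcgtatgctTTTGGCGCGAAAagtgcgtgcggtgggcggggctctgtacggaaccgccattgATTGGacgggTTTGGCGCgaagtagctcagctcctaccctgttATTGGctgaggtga
Dtl, chr1:191575545-191575635, - strand: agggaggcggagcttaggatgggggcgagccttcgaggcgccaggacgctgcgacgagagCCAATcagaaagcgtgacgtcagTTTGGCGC
Pola1, chrX:93632156-93632305, - strand: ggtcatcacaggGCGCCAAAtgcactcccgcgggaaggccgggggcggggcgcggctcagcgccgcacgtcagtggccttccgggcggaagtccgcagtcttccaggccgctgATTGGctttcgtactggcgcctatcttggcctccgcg
Mcm10, chr2:5012792-5012941, - strand: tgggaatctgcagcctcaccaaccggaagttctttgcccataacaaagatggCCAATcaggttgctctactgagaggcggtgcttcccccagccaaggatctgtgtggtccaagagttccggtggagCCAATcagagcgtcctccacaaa
Rfc1, chr5:65335671-65335820, - strand: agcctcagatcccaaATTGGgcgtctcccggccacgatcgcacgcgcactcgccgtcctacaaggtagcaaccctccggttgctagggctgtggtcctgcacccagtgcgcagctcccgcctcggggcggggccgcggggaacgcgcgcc
Pold1, chr7:44548850-44548999, - strand: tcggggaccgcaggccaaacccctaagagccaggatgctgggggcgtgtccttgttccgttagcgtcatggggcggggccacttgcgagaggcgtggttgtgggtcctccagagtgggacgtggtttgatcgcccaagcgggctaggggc

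E2F letters were found in promoters of 10 of the 30 genes: Cdc6, Dtl, Gins3, Hells, Mcm5, Mcm6, Mcm7, Orc1, Pola1 and Rfc3. That was 29.4% of the 34 promoters, beside 2.81% of the promoters of all tested genes and 1.53% of all 32851 promoters. CCAAT was found for 19 of the 30 genes, in 58.8% of their promoters, beside 35.2% for all tested genes and 33.8% of all promoters. In Mcm6 the stretch TTTGGCGCGAAA holds a pair of overlapping E2F matches, one on each strand, and another match stands nearer the start; Mcm3, Mcm5, Mcm6 and Mcm10 are among the genes with more than 1 CCAAT. Mcm5 also holds a pair of overlapping E2F matches, the first of which starts before its printed window and is not in capitals. The median log2 fold change was -1.23 over the 10 genes with E2F letters and -1.07 over the 20 without, and the ranges overlapped, from -2.05 to -0.35 and from -1.74 to 0.26. Pold1 held neither motif in the 250 bases and Rfc1 held 1 CCAAT. A match is a run of letters and not a measured binding site, and its absence says only that these letters are not in this window.

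The licensing genes held the largest falls. Orc1 (ENSMUSG00000028587, chromosome 4, 108579423 to 108614833, + strand), the largest subunit of the origin recognition complex, had 25.9, 23.1, 22.98, 20.02 and 32.8 CPM in control libraries 1 to 5 and 7.27, 5.36, 6.76, 7.06 and 3.84 in fibrosis libraries 1 to 5. Every fibrosis library lay far below every control, with the lowest value in fibrosis 5. The log2 fold change was -2.04 ± 0.18 (SE; edgeR adjusted p = 1.40e-05), a 4.12-fold lower level. Orc6, a small subunit of the same complex, had 45.2, 39.7, 41.1, 37.8 and 47.6 CPM in the controls and 21.6, 16.5, 22.3, 35.2 and 26.5 in fibrosis. Its groups did not overlap either, but fibrosis 4 came close to the lowest control, and the log2 fold change was only -0.80 ± 0.16 (edgeR adjusted p = 0.00223). The log2 ratio of Orc1 to Orc6, computed within each library, was -0.79, -0.77, -0.82, -0.90 and -0.53 in the controls and -1.51, -1.54, -1.65, -2.24 and -2.64 in fibrosis. It fell by 1.15 on the log2 scale with no overlap (exact two-sided permutation test over all assignments of the libraries to groups, p = 0.00794, the smallest this design can give; Benjamini-Hochberg adjusted p over 10 gene pairs = 0.0265). The ratio was lowest in fibrosis 4 and 5, and without them the difference was -0.80 (exact permutation test, adjusted p = 0.0446). With fewer libraries there are fewer assignments, so the smallest p of that test is larger.

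Cdc6 (ENSMUSG00000017499, chromosome 11, 98907801 to 98923940, + strand), the ATPase that joins Orc1 in loading the ring, had 152, 141, 127, 131 and 185 CPM in the controls and 48.1, 29.7, 37.4, 49.2 and 13.01 in fibrosis. It was lower in all 5 fibrosis libraries, and fibrosis 5 was less than any other by a wide margin. The log2 fold change was -2.05 ± 0.29 (edgeR adjusted p = 3.77e-04), and its standard error was the largest of the 38 genes. Cdt1, which brings the ring to the origin, had 233, 218, 200.2, 213 and 254 CPM in the controls and 142, 131, 113, 114 and 79.9 in fibrosis, a log2 fold change of -0.95 ± 0.13 (edgeR adjusted p = 1.89e-04). Gmnn, its inhibitor, had 55.2, 49.3, 48.1, 54.6 and 61.2 CPM in the controls and 26.1, 20.1, 27.3, 42.8 and 30.4 in fibrosis, a log2 fold change of -0.87 ± 0.16 (edgeR adjusted p = 0.00115). The 2 genes fell by a similar amount on average, but not in the same libraries: Cdt1 was highest in fibrosis 1 and 2, and Gmnn was highest in fibrosis 4. The log2 ratio of Cdt1 to Gmnn was 2.07, 2.13, 2.04, 1.95 and 2.04 in the controls (SD 0.064) and 2.42, 2.67, 2.03, 1.40 and 1.38 in fibrosis (SD 0.59). Its mean difference was -0.07 (exact permutation test, adjusted p over the 10 pairs = 0.746), and it turned positive without fibrosis 4 (0.08), without fibrosis 5 (0.08) and without both (0.33), so no direction is given for it. Dtl, which directs the destruction of Cdt1 on the Pcna clamp, was 2.55-fold lower, at 58.6, 56.1, 56.5, 51.4 and 64.9 CPM in the controls and 22.1, 19.4, 24.5, 31.8 and 15.03 in fibrosis.

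The 6 genes of the MCM ring fell together. Mcm2 had 478, 467, 416, 411 and 537 CPM in the controls and 209.9, 173, 174, 178 and 110.3 in fibrosis, a log2 fold change of -1.45 ± 0.15 (edgeR adjusted p = 2.60e-05). Mcm7 had 477, 469, 408, 435 and 537 CPM in the controls and 216, 167, 167, 201 and 123 in fibrosis, a log2 fold change of -1.41 ± 0.14 (edgeR adjusted p = 2.17e-05). For both genes fibrosis 1 was the highest and fibrosis 5 the lowest of the fibrosis libraries, and the groups did not overlap. Mcm5 was 2.38-fold lower, Mcm6 2.32-fold lower and Mcm3 2.28-fold lower. Mcm4 changed least of the ring, with 199, 185, 202, 173 and 231 CPM in the controls and 103, 100.1, 115, 105 and 71.3 in fibrosis, a 2.003-fold lower level. Fibrosis 5 was the lowest library for all 6 genes.

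Because the ring holds 1 copy of each subunit, their shares of the summed level per length (FPKM, fragments per kilobase of gene, scaled to library size) were compared. Mcm2 made up 12.5% ± 0.104 (SD, n = 5) of the summed FPKM of the 6 genes in the controls and 10.9% ± 0.79 in fibrosis. Mcm7 went from 19.9% ± 0.46 to 17.8% ± 0.92, and Mcm4 from 10.4% ± 0.80 to 12.5% ± 1.23. Shares of Mcm3 (18.05% and 19.01%), Mcm5 (23.6% and 23.8%) and Mcm6 (15.5% and 16.04%) moved by less than 1 percentage point. These shares are a description and were not tested. Mcm7 overlaps Cops6 on the other strand, whose counts came to 30.0% of those of Mcm7.

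Among the genes that switch the ring on, Mcm10 stood out. Mcm10 (ENSMUSG00000026669, chromosome 2, 4989714 to 5012791, - strand), which is needed for the ring to open and for polymerase alpha to engage, had 68.2, 71.3, 63.5, 64.7 and 81.2 CPM in the controls and 22.6, 18.5, 21.7, 25.5 and 16.1 in fibrosis. The groups were far apart, with a log2 fold change of -1.74 ± 0.12 (edgeR adjusted p = 9.37e-06), and only Cdc6 and Orc1 changed by more. Cdc45, which joins the ring and GINS in the moving helicase, had 60.5, 60.1, 49.6, 52.3 and 70.3 CPM in the controls and 31.6, 22.98, 22.02, 27.4 and 16.005 in fibrosis, a log2 fold change of -1.29 ± 0.16 (edgeR adjusted p = 8.07e-05). The log2 ratio of Cdc45 to Mcm10 was -0.17, -0.25, -0.35, -0.30 and -0.21 in the controls and 0.48, 0.30, 0.02, 0.10 and -0.01 in fibrosis. It was higher by 0.44 in fibrosis with no overlap (exact permutation test, p = 0.00794; adjusted over the 10 pairs, 0.0265), so by these counts Mcm10 fell by more than Cdc45.

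The GINS complex is built of 4 different subunits, and their transcripts did not fall equally. Gins2 (log2 fold change -1.06 ± 0.13) and Gins1 (-0.93 ± 0.19) fell more than Gins3 (-0.58 ± 0.13) and Gins4 by these estimates. Gins1 had 24.5, 23.7, 22.2, 22.5 and 32.5 CPM in the controls and 11.1, 9.36, 11.9, 20.6 and 12.8 in fibrosis. Gins4 (ENSMUSG00000031546, chromosome 8, 23226616 to 23237659, - strand) had the smallest called change after Rfc2 and Hells, with 57.8, 50.4, 43.98, 50.9 and 58.9 CPM in the controls, 37.5, 36.1, 36.4, 46.6 and 35.3 in fibrosis and a log2 fold change of -0.45 ± 0.11 (edgeR adjusted p = 0.00508). Its groups overlapped, since fibrosis 4 lay above control 3. The log2 ratio of Gins1 to Gins4 was -1.22, -1.07, -0.97, -1.16 and -0.85 in the controls and -1.71, -1.89, -1.57, -1.16 and -1.43 in fibrosis, a difference of -0.50 (exact permutation test, p = 0.0238; adjusted over the 10 pairs, 0.0476). That adjusted p rose to between 0.0595 and 0.0635 without any 1 of the 5 controls.

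The catalytic subunits of the 2 replicative polymerases did not change by the same amount. Pole, the catalytic subunit of polymerase epsilon, had 62.1, 67.8, 58.7, 54.2 and 73.8 CPM in the controls and 31.2, 23.7, 28.9, 21.3 and 19.6 in fibrosis, a log2 fold change of -1.34 ± 0.13 (edgeR adjusted p = 2.36e-05). Pold1 (ENSMUSG00000038644, chromosome 7, 44532746 to 44548849, - strand), the catalytic subunit of polymerase delta, had 276, 276, 263, 271 and 271 CPM in the controls and 259.5, 283, 206, 174 and 149 in fibrosis. Fibrosis 1 lay just under and fibrosis 2 just above the controls, which were tightly grouped, while fibrosis 3, 4 and 5 lay well below them. The log2 fold change of Pold1 was -0.34 ± 0.15 (edgeR adjusted p = 0.0915) and was not called. Without fibrosis 1 or without fibrosis 2 it was called lower. The log2 ratio of Pold1 to Pole was 2.15, 2.02, 2.15, 2.31 and 1.87 in the controls and 3.04, 3.55, 2.81, 3.0 and 2.90 in fibrosis. It was higher by 0.96 in fibrosis with no overlap (exact permutation test, p = 0.00794; adjusted over the 10 pairs, 0.0265).

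In the primase and polymerase alpha complex, which makes the primers, Pola1 (the catalytic subunit) had 32.3, 30.2, 34.7, 26.2 and 28.3 CPM in the controls and 17.7, 22.3, 22.6, 27.1 and 20.4 in fibrosis. The groups overlapped at fibrosis 4 and control 4, and the log2 fold change was -0.46 ± 0.12 (edgeR adjusted p = 0.00875). Pola2, its accessory subunit, was 1.88-fold lower (-0.91 ± 0.11) with no overlap. The primase subunits Prim1 and Prim2 were 1.79-fold and 2.04-fold lower, also with no overlap. The ratio of Pola1 to Pola2 differed by 0.46 and that of Prim1 to Prim2 by 0.20, and neither passed (exact permutation test, adjusted p over the 10 pairs = 0.0794 and 0.129). Without fibrosis 1 both passed, at 0.60 (adjusted p = 0.0265) and 0.29 (adjusted p = 0.0198).

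The sliding clamp and its loader had the smallest median change of the roles, close to that of the polymerases and primase. Pcna, the clamp, had 424, 376, 357, 383 and 477 CPM in the controls and 204, 191, 223, 300.1 and 212 in fibrosis, a log2 fold change of -0.84 ± 0.13 (edgeR adjusted p = 3.19e-04). Every fibrosis library lay below every control, and fibrosis 4 was the highest of the 5. Among the subunits of the loader, Rfc3, Rfc4 and Rfc5 were 1.85-fold, 1.85-fold and 1.72-fold lower. Rfc2 (ENSMUSG00000023104, chromosome 5, 134581366 to 134601805, + strand) had the smallest of all called changes, with 168, 162, 153, 170.3 and 179 CPM in the controls and 142, 129, 129, 142 and 128 in fibrosis. Its groups still did not overlap, and the log2 fold change was -0.31 ± 0.08 (edgeR adjusted p = 0.00638). Rfc1 (ENSMUSG00000029191, chromosome 5, 65261850 to 65335670, - strand), the large subunit that sets this loader apart from the alternative ones, had 70.03, 67.4, 82.3, 61.6 and 68.1 CPM in the controls and 70.6, 92.8, 101, 78.05 and 76.7 in fibrosis. Fibrosis 2 and 3 lay above all controls and the other 3 lay among them. The log2 fold change of Rfc1 was 0.26 ± 0.11 (edgeR adjusted p = 0.08303); without fibrosis 4 and 5 it was 0.34 and called higher (edgeR adjusted p = 0.0385). The log2 ratio of Rfc1 to Rfc2 was -1.26, -1.26, -0.90, -1.46 and -1.39 in the controls and -1.01, -0.47, -0.35, -0.86 and -0.73 in fibrosis, a difference of 0.57 with some overlap (exact permutation test, p = 0.0159; adjusted over the 10 pairs, 0.0397). By the same test it missed the threshold without control 1, 2, 4 or 5 (adjusted p = 0.0635) and without fibrosis 4 and 5 (0.0714). Without fibrosis 4 and 5 the difference was 0.64, and with fewer assignments the smallest p of the test is larger.

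**Figure D2:**
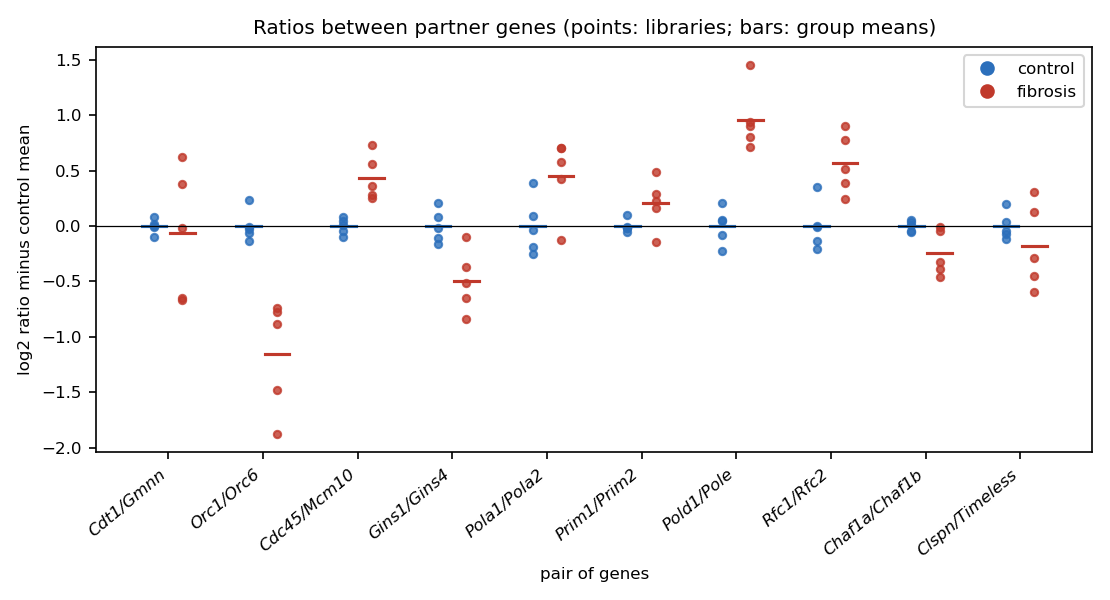
Log2 ratio between partner genes in each library, minus the mean of the control libraries, for the 10 pairs tested; points are libraries and bars are group means. Orc1/Orc6 lies below the controls in all 5 fibrosis libraries, and Cdc45/Mcm10 and Pold1/Pole lie above them, while the fibrosis values of Cdt1/Gmnn spread widely on both sides of 0.

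Genes that finish the lagging strand fell strongly. Lig1, the ligase that seals Okazaki fragments, had 243, 227, 196, 205 and 269.6 CPM in the controls and 110.1, 85.99, 97.2, 106 and 61.9 in fibrosis, a log2 fold change of -1.31 ± 0.15 (edgeR adjusted p = 4.39e-05). Fen1, the flap endonuclease that trims them, had 14.9, 14.2, 13.1, 10.97 and 15.4 CPM in the controls and 7.27, 5.11, 6.16, 5.16 and 4.49 in fibrosis, a log2 fold change of -1.28 ± 0.15 (edgeR adjusted p = 6.80e-05). Neither gene overlapped between groups. Fen1 is the lowest of the 38 in CPM in the controls and lies over Tmem258 on the other strand, whose counts came to 595% of those of Fen1.

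Chromatin genes ranged from Chaf1a, at more than 2-fold lower, to Hells, with a small change. Chaf1a, the large subunit of the histone chaperone CAF-1, had 88.3, 84.7, 79.03, 76.99 and 96.98 CPM in the controls and 37.9, 26.1, 28.7, 32.4 and 20.1 in fibrosis, a log2 fold change of -1.55 ± 0.14 (edgeR adjusted p = 1.55e-05). Its partner Chaf1b was 2.496-fold lower, and the ratio of the 2 genes differed by -0.24 (exact permutation test, p = 0.0476; adjusted over the 10 pairs, 0.0794). Without fibrosis 1 or 2 that ratio passed, at -0.30 (adjusted p = 0.0298) and -0.29 (adjusted p = 0.0397). Slbp, which binds the stem-loop of replication-dependent histone mRNAs and peaks in S phase, was 1.72-fold lower. Hells (ENSMUSG00000025001, chromosome 19, 38930915 to 38971051, + strand), a chromatin remodeller needed for DNA methylation, had 23.6, 24.3, 26.9, 21.9 and 25.2 CPM in the controls and 15.3, 18.4, 20.5, 20.7 and 20.9 in fibrosis. The groups came close without overlap, with fibrosis 3, 4 and 5 just under control 4, and the log2 fold change was -0.35 ± 0.11 (edgeR adjusted p = 0.02202). Without control 3 it was -0.31 and no longer called (edgeR adjusted p = 0.0535).

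Clspn and Timeless protect forks and carry the checkpoint signal from stalled ones. Clspn had 48.8, 45.3, 48.4, 42.2 and 54.2 CPM in the controls and 19.3, 13.7, 23.2, 21.1 and 11.3 in fibrosis, a 2.697-fold lower level. Timeless had 80.2, 82.7, 70.9, 74.9 and 94.1 CPM in the controls and 40.02, 35.6, 36.01, 28.8 and 26.4 in fibrosis, a 2.41-fold lower level. Both were below the controls in all 5 fibrosis libraries. Their ratio differed by -0.18 (exact permutation test, adjusted p over the 10 pairs = 0.370).

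**Figure D3:**
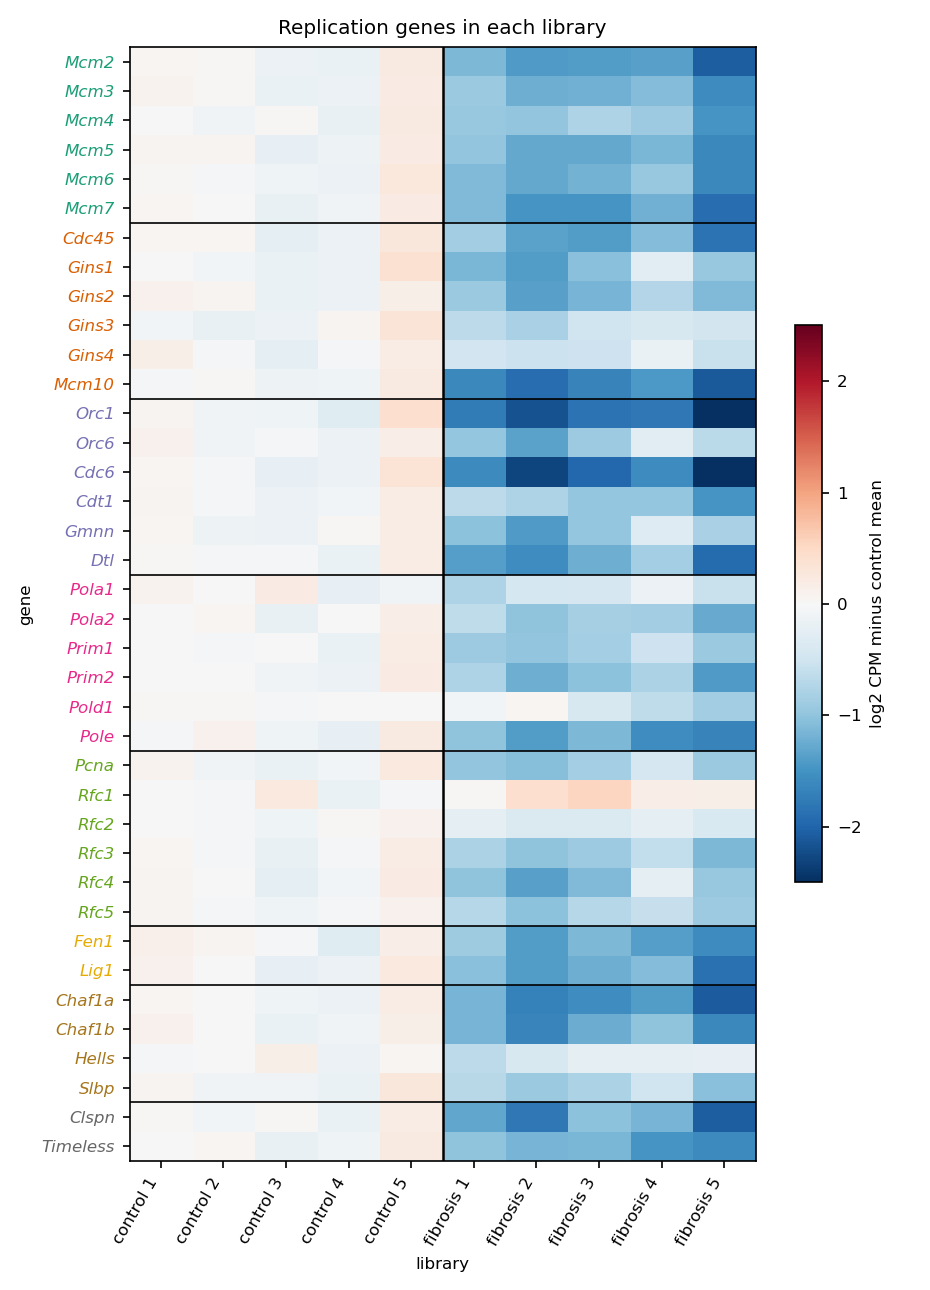
Log2 CPM of each of the 38 replication genes in the 10 libraries, minus the mean of the control libraries, with genes in rows grouped by role and libraries in columns; blue is lower and red is higher. Fibrosis 5 is darkest for most rows, control 5 is the highest control for 34 of 38, and the rows of Rfc1 and Pold1 differ from the rest.

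Libraries of one group differed in how far the genes moved together. Summed over the 38 genes, fibrosis libraries 1 to 5 held 54.1%, 47.5%, 49.1%, 54.3% and 38.2% of the control mean, and control libraries 1 to 5 held 103%, 98.9%, 91.0%, 92.1% and 115%. Fibrosis 5 was the lowest fibrosis library for 25 of the 38 genes, fibrosis 2 for 10 and fibrosis 1 for 3. The highest fibrosis library was fibrosis 4 for 18 genes and fibrosis 1 for 15. Control 5 was the highest control for 34 of the 38. The standard deviation of log2 CPM was larger in fibrosis than in the controls for 35 of the 38 genes, with medians of 0.26 and 0.15.

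Levels between genes are compared per length, as deposited FPKM. Pcna was the most abundant of the 38, at 168 ± 20.7 FPKM (mean ± SD, n = 5) in the controls and 92.7 ± 17.7 in fibrosis. Mcm5 followed at 125 ± 14.5 and 51.9 ± 9.41 FPKM and Mcm7 at 105 ± 11.5 and 39.1 ± 8.99 FPKM. Pold1 stood eighth in the controls at 55.8 ± 1.47 FPKM and, at 43.7 ± 12.4 FPKM, just behind Pcna and Mcm5 in fibrosis. The lowest levels in the controls were those of Hells (3.38 ± 0.237 FPKM), Pola1 (3.44 ± 0.359 FPKM) and Dtl (4.19 ± 0.365 FPKM). In fibrosis the lowest were Dtl (1.63 ± 0.464 FPKM) and Orc1 (1.72 ± 0.446 FPKM), which in the controls had stood at 7.16 ± 1.41 FPKM. The ranges of Mcm5 and Mcm7 over the control libraries overlapped, as did those of Hells and Pola1.

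**Figure D4:**
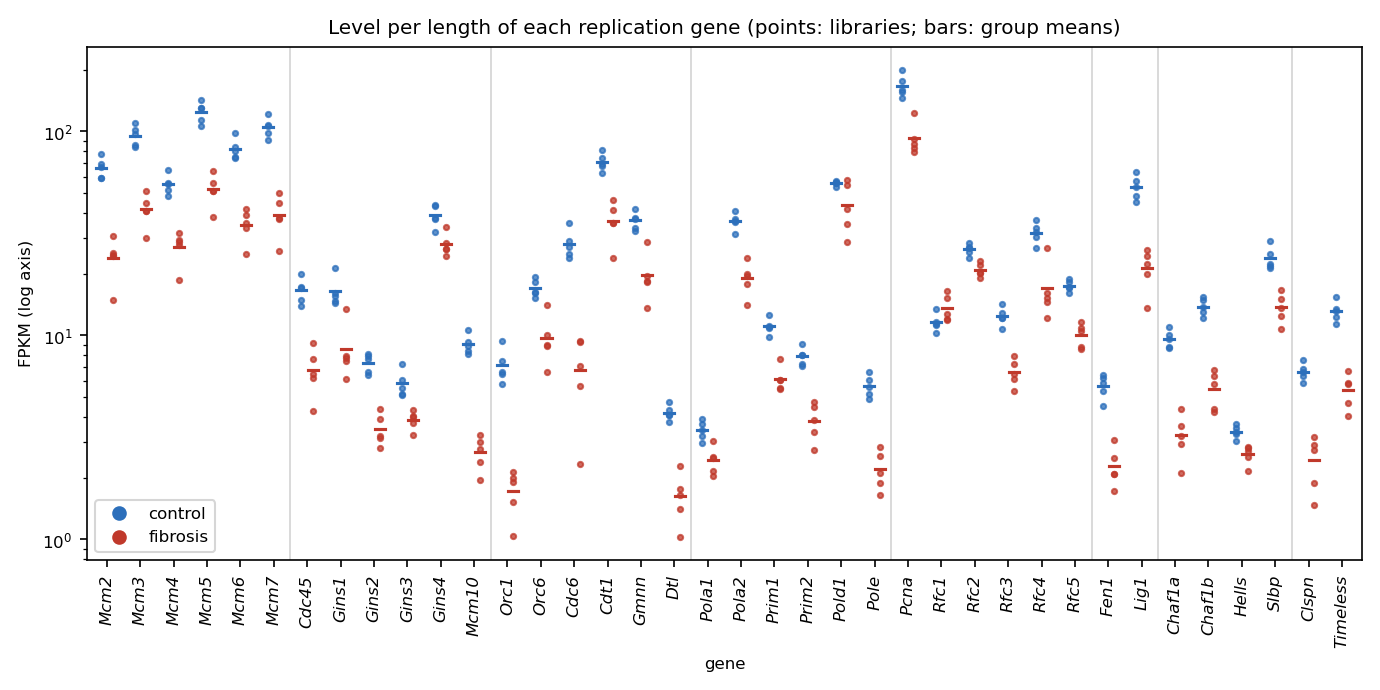
Deposited FPKM of each of the 38 replication genes on a log axis, with control libraries in blue and fibrosis libraries in red; points are libraries, bars are group means and vertical lines part the roles. Blue points lie above red ones for most genes, Pcna is highest in both groups, and the points of Pold1 and Rfc1 mix.

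For 10 of the 38 genes, a protein-coding gene with counts lies on the other strand of the same ground. Use of strand in the counting was not given in the sources used here, and the reads of these genes are uncertain. Beside Mcm7 and Fen1 these are Cdc45 with Ufd1 (99.0% of the counts of Cdc45), Gins2 with Gse1 (430%), Orc6 with Vps35 (283%), Rfc2 with Lat2 (49.0%), Rfc4 with Eif4a2 (810%), Rfc5 with Wsb2 (83.8%), Chaf1a with Ubxn6 (39.7%) and Lig1 with Zswim9 (3.04%). All 10 were called lower. The ratios Orc1/Orc6, Cdc45/Mcm10, Rfc1/Rfc2 and Chaf1a/Chaf1b each hold 1 of these genes and share this uncertainty.

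Other genes of replication, listed by their role, were mostly lower as well, with a smaller median change. Of 55 such genes, 40 were called lower by edgeR, 3 higher and 12 were not called, beside 17.2% lower and 18.6% higher among all tested genes. At least 2-fold lower were 13 of the 55, and their median log2 fold change was -0.57. Among the kinases and factors that fire origins, 9 of 10 were lower, with Ccna2, a cyclin of S phase, at -1.39 ± 0.15 and Ticrr, which brings the firing complex to the ring, at -1.43 ± 0.17. Among replication-coupled chromatin factors 9 of 10 were lower, with Uhrf1, which recruits the maintenance DNA methyltransferase, at -1.58 ± 0.14 and Asf1b, a histone chaperone, at -0.93 ± 0.12.

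Further polymerase subunits and linked factors were lower in 5 of 7 cases, including Pole2 (-1.31 ± 0.15) and Pole3 (-1.0 ± 0.13) of polymerase epsilon and Pold2 (-0.60 ± 0.09) and Pold3 (-0.52 ± 0.09) of polymerase delta. Pole4 of polymerase epsilon was not called (0.06 ± 0.07). Pold4, the smallest subunit of polymerase delta, was higher, at 149, 155, 150.3, 146 and 135 CPM in the controls and 221, 224, 199, 224 and 223 in fibrosis with no overlap, a log2 fold change of 0.57 ± 0.08 (edgeR adjusted p = 1.18e-04). The single-strand binding proteins Rpa2 (-0.79 ± 0.11) and Rpa1 (-0.59 ± 0.09) were lower, and Rpa3 was not called (-0.0 ± 0.19). Of the alternative clamp loaders, Chtf18 (-1.43 ± 0.16) and Dscc1 (-1.34 ± 0.19) were among 3 of 5 that were lower, while Rad17, which loads the checkpoint clamp, was higher (0.33 ± 0.11; edgeR adjusted p = 0.0399).

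Among flap, RNA primer and topology enzymes 4 of 7 were lower, including Dna2 (-1.06 ± 0.09), a nuclease of long flaps, and Top2a (-0.94 ± 0.10), which untangles sister chromatids. Fork protection partners and checkpoint kinases were lower in 3 of 5 cases, including Fbxo5 (-0.97 ± 0.13), an inhibitor of the ubiquitin ligase that ends mitosis, and Tipin (-0.74 ± 0.15), the partner of Timeless. The other origin and MCM factors moved least (5 of 8 lower, median -0.44), with Lrwd1, which binds the origin recognition complex, at -0.59 ± 0.09 and Mcm8, outside the ring, at -0.58 ± 0.13. Within the origin recognition complex Orc1 and Orc6 thus stood beside Orc2 (-0.48 ± 0.12) and Orc5 (-0.56 ± 0.13), which were lower, Orc3 (0.20 ± 0.12), which was not called, and Orc4, which was higher (0.42 ± 0.15; edgeR adjusted p = 0.0431).

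Genes of mitosis, the phase after replication, were also lower: 21 of 22 were called lower by edgeR, 14 of them at least 2-fold, with a median of -1.19 beside -1.02 for the 38 replication genes. Mki67, a marker of cycling cells, was at 303, 291, 326, 230.0 and 302 CPM in the controls and 116, 119, 179, 160.5 and 96.4 in fibrosis, a log2 fold change of -1.11 ± 0.16 (edgeR adjusted p = 2.04e-04). The difference between the 2 lists was not tested.

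Most markers of 2 other kinds of cell that can divide, erythroid precursors and precursor B cells, were also lower in the fibrosis group. Of 16 erythroid markers, 11 were lower by edgeR (median log2 fold change -1.83), and Hba-a1, Hba-a2, Hbb-bs, Hbb-bt and Alas2 were not called. They summed to between 1021 and 7903 CPM in fibrosis and between 4121 and 6616 in the controls. As a mean of log2 values relative to the controls, the erythroid list stood at -1.58, -2.38, -1.36, -0.36 and -2.12 in fibrosis libraries 1 to 5, and the 38 replication genes at -0.92, -1.17, -1.0, -0.82 and -1.35. Fibrosis 4 was the highest fibrosis library and control 5 the highest control on both lists. Beyond these, the orders within each group differed only by swaps of neighbouring libraries. The lowest fibrosis library was fibrosis 2 on the erythroid list and fibrosis 5 on the replication genes. The lowest control was control 3 (-0.22) on the erythroid list and control 4 (-0.12) on the replication genes. A link between the 2 lists was not tested. Of 10 markers of immature and precursor B cells, 9 were lower (median -1.67) and Il7r was not called, with sums of 114 to 142 CPM in fibrosis and 229 to 289 in the controls. This list stood at -1.37, -1.47, -1.87, -1.24 and -1.10 in fibrosis libraries 1 to 5. The order of this list differed by more from that of the replication genes: fibrosis 5 was its highest fibrosis library and control 2 its highest control. No marker of either list was at 0 in a whole group.

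No listed marker of other B cell states was called lower. Among all tested genes, 18.6% were called higher and 17.2% lower by edgeR. Of 7 markers of germinal centre B cells, 5 were higher and 2 were not called, with sums of 123 to 169 CPM in fibrosis and 89.4 to 115 in the controls. Of the 8 B cell genes 3 were higher and none lower. Plasma cell markers were higher in 1 of 6 tested cases, near the share of all tested genes. Their median log2 fold change was -0.04 (623 to 853 CPM in fibrosis, 586 to 742 in the controls). Of 10 T and NK cell markers 4 were higher (229 to 316 CPM; 177 to 233), dendritic cell markers in 4 of 6 (252.2 to 312; 151 to 164) and platelet markers in 5 of 5 tested (219 to 1007; 123 to 154). No neutrophil (243 to 4350; 362 to 1213), macrophage (1662 to 5623; 2909 to 4760) or myeloid progenitor marker (192 to 749; 319 to 743) was called by edgeR in either direction.

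**Figure D5:**
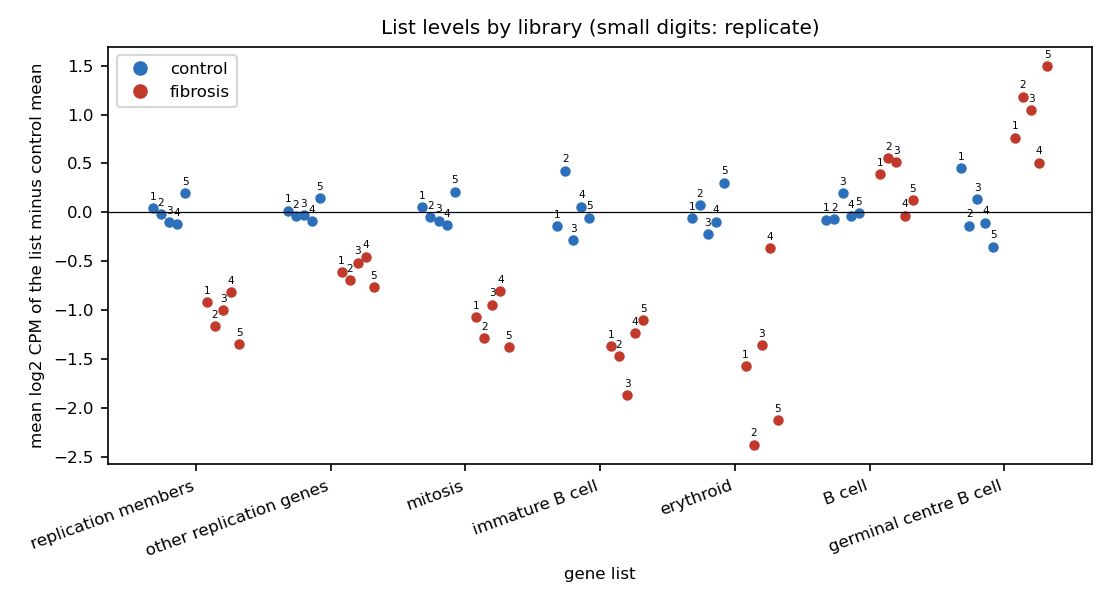
Mean log2 CPM of each gene list minus its control mean, in each library; blue points are control libraries, red points are fibrosis libraries and the small digits are replicate numbers. The replication, mitosis, immature B cell and erythroid lists lie below 0 in all 5 fibrosis libraries, and the germinal centre list lies above 0 in all 5.

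The 11 replication genes called lower by edgeR with the erythroid level as a covariate were Mcm2, Mcm3, Mcm5, Mcm6, Mcm7, Mcm10, Orc1, Pole, Chaf1a, Chaf1b and Timeless. The 9 called with the immature B cell level were Mcm2, Mcm4, Mcm6, Mcm10, Orc1, Pole, Chaf1a, Clspn and Timeless. In these fits 37 and 38 of the 38 fold changes were negative. Neither level overlapped between the groups, so the level and the group cannot be fully told apart, and the part of these cells in the result was not tested. Without fibrosis 4 and 5, 36 replication genes were called lower, beside 18.8% of all tested genes, 22 were at least 2-fold lower, Rfc1 was called higher, and the median was -1.11.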

How the data were processed

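RNA sequencing libraries of splenic B cells, 5 from the fibrosis group and 5 controls, took their group from the labelled disease state. Per the labels' protocols, mRNA was selected with poly-T beads and reverse transcribed with random hexamers. The authors deposited unnormalised counts of reads for each gene. They also deposited FPKM, which by their values are these counts over gene length and library total, with 1 factor per library. The build is GRCm38 (mm10) per the submitters' processing notes; aligner, counting program and use of strand: not given in the sources used here.

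Deposited counts were tested with edgeR 4.0.16 (R 4.3.3): filterByExpr, TMM scaling, robust quasi-likelihood fit, Benjamini-Hochberg adjustment over 14283 genes, called at an adjusted p under 0.05, with no covariate. CPM are TMM-scaled, and the standard error is the size of the log2 fold change over the root of the test's F. The median standard error was 0.37 under 1 CPM and 0.11 over 100 CPM. Gene pairs were compared by an exact permutation test on log2 ratios with a pseudocount of 0.5 (scipy 1.17.1). The 10 pairs join partners in a complex or step. Other such pairs were possible, and the adjustment over 10 pairs does not cover the choice among them. The code was tested on simulated counts. Alternatives were other scalings and filters, DESeq2 1.42.0, limma 3.58.1 (voom, and trend on FPKM), a stricter threshold, the replicate block, left-out libraries and marker levels as covariates.

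The text names all 38 genes, with the 3 largest and 3 smallest called changes and those not called in full, and from the lists of other replication genes the 2 with the smallest p and those called higher; Orc2, Orc3, Orc5, Pold2, Pold3, Pole4 and Rpa3 were added after their values were seen. The genes and lists were chosen with earlier results of these data known. Promoter sequences are from RefSeq (GRCm38.p6). Of 56 symbols of other replication genes, 55 were found. Some genes of the marker lists are not reported here by name.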

Additional observations from a re-analysis of the deposited data

Results flagged for a closer look

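In 4 of the 76 groups examined (38 genes in 2 conditions), 1 library lay apart from the other 4, with a gap over 0.71 of the group's range. Chance gives about 1 in 20, so this number is near what chance gives. Gins1 was 32.5 CPM in control 5, where the other controls lay between 22.2 and 24.5. Gins4 was 46.6 CPM in fibrosis 4, where the other fibrosis libraries lay between 35.3 and 37.5. Prim1 was 30.1 CPM in fibrosis 4, against 21.5 to 23.6 in the others. Rfc4 was 41.8 CPM in fibrosis 4, against 18.8 to 25.05 in the others, which put it above control 3 and made it 1 of the 5 replication genes whose groups overlapped. In 3 of the 4 cases the library was fibrosis 4. Its erythroid genes summed to 149% of the control mean, while those of the other fibrosis libraries summed to between 19.3% and 64.4%. As a mean of log2 values relative to the controls, however, its erythroid list stood at -0.36, below every control. The part of these cells in the 3 values was not tested.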

How the results depend on the processing

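Over 24 alternatives the 38 genes gave 912 fold changes, of which 889 were negative, and the single change of sign was that of Rfc1, to -0.40 with the immature B cell covariate. The number called lower was 35 to 37 when each library was left out in turn and when scaling, filter, test, unit or threshold changed. Over these settings the share of all tested genes called lower ran from 8.04% with no filter to 23.1% with library size alone. Only the marker covariates lowered the number of replication genes further. The shares of all tested genes were then 1.18% (erythroid) and 1.83% (immature B cell). With the erythroid covariate 11 were called lower, 7 at least 2-fold (median -0.67), and 3 other replication genes; with the immature B cell covariate 9, 9 (median -1.17) and 14. Scaling by library size alone moved the median of all genes from 0.05 to -0.06, the share called lower from 17.2% to 23.1% and the share called higher from 18.6% to 12.4%; 37 replication genes were then lower, with a median of -1.12. Pold1 was also called lower with library size alone, with no filter and without fibrosis 1 or 2, and Rfc1 was also called higher by voom and without fibrosis 1 or control 3.

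Among the ratios, leaving out 1 library at a time gave Cdt1/Gmnn -0.24 to 0.08, Orc1/Orc6 -1.25 to -0.97, Cdc45/Mcm10 0.36 to 0.48, Gins1/Gins4 -0.59 to -0.41, Pola1/Pola2 0.39 to 0.60, Prim1/Prim2 0.13 to 0.29, Pold1/Pole 0.84 to 1.02, Rfc1/Rfc2 0.48 to 0.65, Chaf1a/Chaf1b -0.30 to -0.19 and Clspn/Timeless -0.30 to -0.08. Cdt1/Gmnn turned positive without fibrosis 4 (0.078) and without fibrosis 5 (0.084). Without both, Cdt1/Gmnn was 0.33 and Rfc1/Rfc2 0.64 (adjusted p = 0.0714). E2F letters within 100 bases of the start were found for 6 genes in place of 10.

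The labels tie no replicate number to a shared animal or batch, and the check was mixed. Same-numbered deviations correlated at 0.11, -0.13, 0.42, 0.25 and -0.25. Among the 5 libraries of the other group, 6 of 10 libraries correlated best with their own number. This is a hint from the data and not from the design. With a replicate block 37 replication genes were called lower (Pold1 included, -0.38), beside 17.7% of all tested genes. Rfc1 was called higher (0.26), beside 18.7%. In the paired sign-flip test of the ratios, whose p cannot go below 0.0625, Orc1/Orc6 (-1.15), Cdc45/Mcm10 (0.44), Gins1/Gins4 (-0.50), Pold1/Pole (0.96) and Rfc1/Rfc2 (0.57) did not pass. With 5 libraries a group, the spread between libraries and not the counts limits these genes.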

Other observations

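Some values stood outside the comparisons above. Among the 55 other replication genes the largest falls were those of Recql4, a helicase needed for origin firing (log2 fold change -1.89 ± 0.21; edgeR adjusted p = 5.40e-05), and Ccne1, a cyclin of the entry into S phase (log2 fold change -1.61 ± 0.21; edgeR adjusted p = 1.42e-04); both were picked out after their values were seen. Over all tested genes with a RefSeq promoter, the E2F letters stood in 4.59% of the promoters of genes called lower, 1.93% of those called higher and 2.55% of those not called, and CCAAT in 38.7%, 33.7% and 34.6%. The other replication genes held E2F letters in 15.8% of 57 promoters and CCAAT in 42.1%. These shares are descriptions and were not tested.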
